A study of Mus musculus with 11 samples.

Results

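The regions described here were stretches of the genome that carried both H3K4me3 and H3K27me3 in mouse embryonic stem cells and H3K27me3 in both early kidney lineages. They were chosen by overlap of deposited peak lists. A peak of the stem cell H3K27me3 list was taken when at least 1 bp of it was shared with a peak of the stem cell H3K4me3 list, of the cap mesenchyme H3K27me3 list and of the ureteric H3K27me3 list. This gave 2487 of the 12879 stem cell H3K27me3 peaks, and 2487 of the 6728 that carried both marks in stem cells. The other regions with both marks in stem cells were 1011 regions with H3K27me3 in ureteric epithelium only, 435 with it in cap mesenchyme only and 2795 with it in neither. The rule thus used 4 of the 6 lists, and the kidney H3K4me3 lists and the RNA were not part of it.

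H3K27me3 is laid down by Polycomb repressive complex 2 and is found at developmental genes that are silent or poised. H3K4me3 is laid down at promoters, mostly rich in CpG, by COMPASS-type methyltransferases, and is strongest at genes in use. Promoters of developmental regulators often carry both marks in embryonic stem cells, a state called bivalent, and such promoters can later keep both marks, keep one or lose both. In the kidney, cap mesenchyme holds the nephron progenitors that form the filtering units, and ureteric epithelium is the branching tube that becomes the collecting ducts.

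Each group held 1 sample, so no difference in the text has a replicate check, and no p-value or SD is given. Cap mesenchyme chromatin (MM) came from Cited1-RFP+ cells of the strain Cited1nuc-TagRFP-T, taken by cell sorting at E18.5. The strain is of (C57BL/6 x DBA)F1 origin and was kept on C57BL/6J. Ureteric chromatin (UB) came from Hoxb7-GFP+ cells of Hoxb7myr-Venus/+ animals, taken by cell sorting at E15.5. That strain is of (C57BL/6J x CBA/J)F2 origin on C57BL/6J. In both, the reporter follows the Cited1 or Hoxb7 gene and so sets which cells were taken. Stem cell chromatin (mES) came from the wild-type 129/Ola line E14 at passage 15, a single line. Native chromatin was cut with micrococcal nuclease before precipitation. For RNA, wild-type C57BL/6 kidney rudiments of E11.5 were split by hand into mesenchyme and bud, so it was taken from unsorted tissue and at an earlier age than the chromatin. MM and UB below name these sources for each assay. Chromatin of MM and UB differed in age and reporter strain as well as in lineage. These cannot be told apart in any chromatin difference between MM and UB.

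Reference promoters show the kinds of sequence at the regions. The 5 below lie whole inside wide regions at genes with 1 listed start, and were taken by width from regions of each of the 4 H3K4me3 states. The state is that of the region, and the printed window need not carry the peak. Each runs 5′ to 3′ along the gene, from 250 bases before the start to 50 after it, in RefSeq's GRCm38.p6 table, with CpG dinucleotides in capitals. The region at Pdgfra, a growth factor receptor of mesenchyme, had H3K4me3 in both lineages, but its printed window (chr5:75152001-75152300, plus strand) had 0 bases under H3K4me3 in MM or UB. Gsx2, a forebrain homeobox gene (chr5:75075351-75075650, plus strand), and the homeobox gene Nkx1-1 (chr5:33434041-33434340, minus strand) had it in MM only, over all 300 bases of each window. Tfap2b, an AP-2 factor of the distal nephron, had it in UB only, again over all 300 bases (chr1:19211804-19212103, plus strand). Cdx2, a homeobox gene of gut and trophoblast, had it in neither (chr5:147307200-147307499, minus strand).
Pdgfra: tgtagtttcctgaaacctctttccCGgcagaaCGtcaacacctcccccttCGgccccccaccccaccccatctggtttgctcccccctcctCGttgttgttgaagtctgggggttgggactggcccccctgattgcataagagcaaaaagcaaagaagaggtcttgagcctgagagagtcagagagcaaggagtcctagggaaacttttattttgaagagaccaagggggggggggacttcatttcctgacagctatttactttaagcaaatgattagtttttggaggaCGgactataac
Gsx2: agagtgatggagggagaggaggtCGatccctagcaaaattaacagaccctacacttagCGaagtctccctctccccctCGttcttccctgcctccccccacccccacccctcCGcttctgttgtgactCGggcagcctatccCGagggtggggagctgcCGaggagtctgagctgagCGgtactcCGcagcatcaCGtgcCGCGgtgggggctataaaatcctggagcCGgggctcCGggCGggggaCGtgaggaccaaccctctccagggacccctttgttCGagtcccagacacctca
Nkx1-1: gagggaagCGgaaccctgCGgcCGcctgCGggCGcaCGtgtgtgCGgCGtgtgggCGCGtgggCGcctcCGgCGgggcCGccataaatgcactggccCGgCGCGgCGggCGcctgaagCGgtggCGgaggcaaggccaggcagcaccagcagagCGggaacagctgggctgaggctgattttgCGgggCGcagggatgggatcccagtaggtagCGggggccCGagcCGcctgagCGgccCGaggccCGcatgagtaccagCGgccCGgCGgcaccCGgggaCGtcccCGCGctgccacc
Tfap2b: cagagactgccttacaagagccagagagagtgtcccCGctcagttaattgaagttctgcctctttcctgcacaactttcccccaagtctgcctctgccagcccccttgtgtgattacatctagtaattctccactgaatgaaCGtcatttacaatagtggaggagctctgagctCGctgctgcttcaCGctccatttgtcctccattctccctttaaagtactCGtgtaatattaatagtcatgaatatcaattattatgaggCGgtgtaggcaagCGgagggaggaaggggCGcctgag
Cdx2: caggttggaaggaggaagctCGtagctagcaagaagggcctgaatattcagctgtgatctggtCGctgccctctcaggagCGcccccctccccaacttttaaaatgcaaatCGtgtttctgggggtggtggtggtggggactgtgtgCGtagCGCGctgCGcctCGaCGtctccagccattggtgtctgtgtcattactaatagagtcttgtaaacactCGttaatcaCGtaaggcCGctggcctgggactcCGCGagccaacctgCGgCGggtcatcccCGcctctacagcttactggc

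The number of CpGs in these 300 bases was 5 at Pdgfra, 17 at Gsx2, 37 at Nkx1-1, 8 at Tfap2b and 18 at Cdx2. The spread among single promoters was thus wide. Of the coding genes at the regions, 697 had a promoter in the table, and their median was 20 CpGs, with a median GC content of 64.0%. Over all 17491 coding promoters of the table the medians were 13 CpGs and 56.3%. For genes at regions with both marks in stem cells and H3K27me3 in neither lineage (n = 886) they were 22 CpGs and 65.3%. The higher CpG content was thus not particular to the regions with H3K27me3 in both. Promoters with 3 CpGs or fewer made up 1.87% at the regions, 3.84% with H3K27me3 in neither and 25.0% of the table. By H3K4me3 state the median was 22 CpGs for genes with the mark in both lineages (n = 469), 19 in MM only (n = 186), 11 in UB only (n = 8) and 14.5 in neither (n = 34). Promoters of genes whose regions had no kidney H3K4me3 thus had fewer CpGs by median than those of the both and MM-only states. The state is that of the region: 31.8% of the 44 genes with neither had MM H3K4me3 on the start base. An observed-over-expected CpG ratio of at least 0.6 was found in 70.4% of the first group, 66.1% of the second and 44.1% of the last. Letter matches were counted on both strands. The GC box GGGCGG was in 65.0% of promoters at the regions and 46.3% of the table, the TATA box TATAAA in 10.2% and 13.3%, and the homeodomain core TAATTA in 3.44% and 4.67%. At regions with H3K27me3 in neither lineage these shares were 70.0%, 8.92% and 1.47%.

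MicroRNA genes form a small second set. Of 1005 hairpins in RefSeq's table, 20 (1.99%) lay within 1 kb of a region, and 48 (4.78%) within 1 kb of any stem cell H3K27me3 peak. Their regions had H3K4me3 in both lineages for 11 hairpins, in MM only for 8 and in neither for 1. The mature sequences below are those of neuronal miRNAs among them, with the seed (bases 2 to 8) in capitals.
mmu-miR-9-5p: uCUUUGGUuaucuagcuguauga
mmu-miR-132-3p: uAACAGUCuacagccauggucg
mmu-miR-212-3p: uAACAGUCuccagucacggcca
mmu-miR-137-3p: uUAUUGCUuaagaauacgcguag
mmu-miR-129-5p: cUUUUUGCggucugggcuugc

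All 3 genes for miR-9, a regulator of neural progenitors, were at regions. Mir9-1 (chr3:88215613-88215635 for the 5p arm, plus strand) and Mir9-3 (chr7:79505279-79505301, plus strand) had H3K4me3 in MM only, while the region at Mir9-2 (chr13:83738821-83738843, plus strand) had it in both. Mir132 and Mir212 share the seed AACAGUC and 1 region with H3K4me3 in both lineages, Mir129-2 was at a region with the mark in MM only, and Mir137 at one with neither. Mature miRNA was not measured.

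The regions were 162 to 13497 bp wide, with a median of 1410 bp, and covered 4813 kb in all. What the rule used is given as description. Stem cell H3K4me3 peaks covered 64.5% of their bases, MM H3K27me3 peaks 74.1% and UB H3K27me3 peaks 86.8%. The deposited H3K27me3 lists differed in build, with 12879 peaks of median width 657 bp in mES, 108394 of 195 bp in MM and 144362 of 281 bp in UB. A region carried a median of 2 separate MM H3K27me3 peaks and 1 UB peak. At the edge of the rule, 72 regions shared fewer than 50 bp with at least 1 of the 3 lists, down to 1 bp. Just outside it, 22 regions with H3K27me3 in UB only had an MM peak fewer than 50 bp away, and 9 with it in MM only had a UB peak that near. A further 37 of 1370 peaks that lacked only stem cell H3K4me3 had such a peak within that distance.

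Neighbouring regions often belonged together. Joining regions less than 3 kb apart gave 1373 groups, of which 593 held at least 2 regions and 1707 regions in all, up to 11 in 1 group. Regions were found on every autosome and X, from 10.4% of the stem cell H3K27me3 peaks of chromosome X to 30.6% of those of chromosome 13.

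H3K4me3 stayed at most regions in MM and at fewer in UB. A region was counted when it touched a kidney H3K4me3 peak by at least 1 bp. In MM this held for 1866 of 2487 regions (75.0%, 95% Clopper-Pearson interval 73.3 to 76.7), against 44.4% of all stem cell H3K27me3 peaks and 80.6% of all regions with both marks in stem cells. In UB it held for 1256 regions (50.5%, 48.5 to 52.5), against 35.4% and 64.1%. Intervals throughout cover counting error over regions or genes only, and the number of reads behind each list is unknown.

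The 4 combinations were uneven. H3K4me3 was in both lineages at 1192 regions (47.9%, beside 33.6% of all stem cell H3K27me3 peaks and 62.4% of those with both marks), and in neither at 557 (22.4%, beside 53.8% and 17.7%). It was in MM only at 674 regions (27.1%, 25.4 to 28.9), beside 10.8% and 18.3%. It was in UB only at 64 regions (2.57%, 1.99 to 3.27), beside 1.81% and 1.69%. Of the 1256 regions with H3K4me3 in UB 64 thus had no MM peak, while 674 of the 1866 in MM had no UB peak. The MM H3K4me3 list was also the longer one, with 32992 peaks against 23958, and what part list length has in this asymmetry cannot be told from these lists. When the highest-scoring peaks of each list were taken so that lists of 1 mark had equal length, 1125 regions were left, with 24.1% in MM only and 3.56% in UB only.

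**Figure D1:**
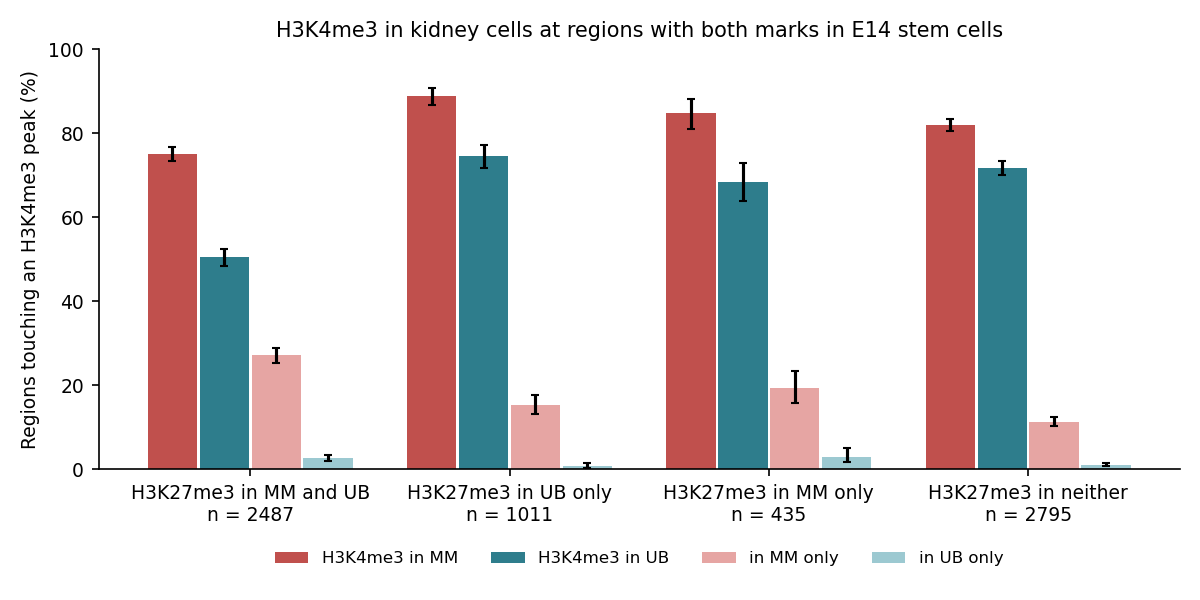
Percentage of regions with both marks in stem cells that touched an H3K4me3 peak in MM, in UB, in MM only and in UB only, for 4 groups set by H3K27me3 in the kidney lineages. Bars start at 0 and lines are 95% Clopper-Pearson intervals over regions. The regions with H3K27me3 in both lineages stood at 75.0% and 50.5%, and their MM-only bar, 27.1%, is above the others.

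The comparison with other stem cell regions asks whether regions that kept H3K27me3 in both lineages also differed in H3K4me3. Regions with H3K27me3 in neither lineage had H3K4me3 at 82.0% in MM and 71.7% in UB. Those with H3K27me3 in UB only stood at 88.9% and 74.5%, and those with it in MM only at 84.8% and 68.5%. Over all 3 groups together the share was 83.9% in MM and 72.0% in UB, so the regions with H3K27me3 in both differed from them by -8.89 and -21.5 percentage points. The UB difference was negative under all 9 other settings tried for it. The MM difference was small at gene starts (-1.19 points among regions within 1 kb of a coding start) and changed sign when stem cell peaks under 3 kb apart were joined first (6.98 points, with the UB difference then -5.96).

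Width moved with both shares. Among regions under 500 bp, 54.1% had H3K4me3 in MM and 36.8% in UB, and among those of 2 to 4 kb 83.9% and 57.9%. In regions of at least 4 kb the MM share was 87.4% and the UB share 49.0%, with 39.5% in MM only. Among these regions the widest class was thus the one in which the lineages differed most often. Regions with H3K27me3 in neither lineage were higher in UB in each class, at 63.6% under 500 bp and 76.7% at 2 to 4 kb. At 4 kb or more that group (n = 28) had H3K4me3 at 96.4% in MM, 60.7% in UB and 35.7% in MM only. The larger difference at wide regions was thus not particular to those with H3K27me3 in both.

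**Figure D2:**
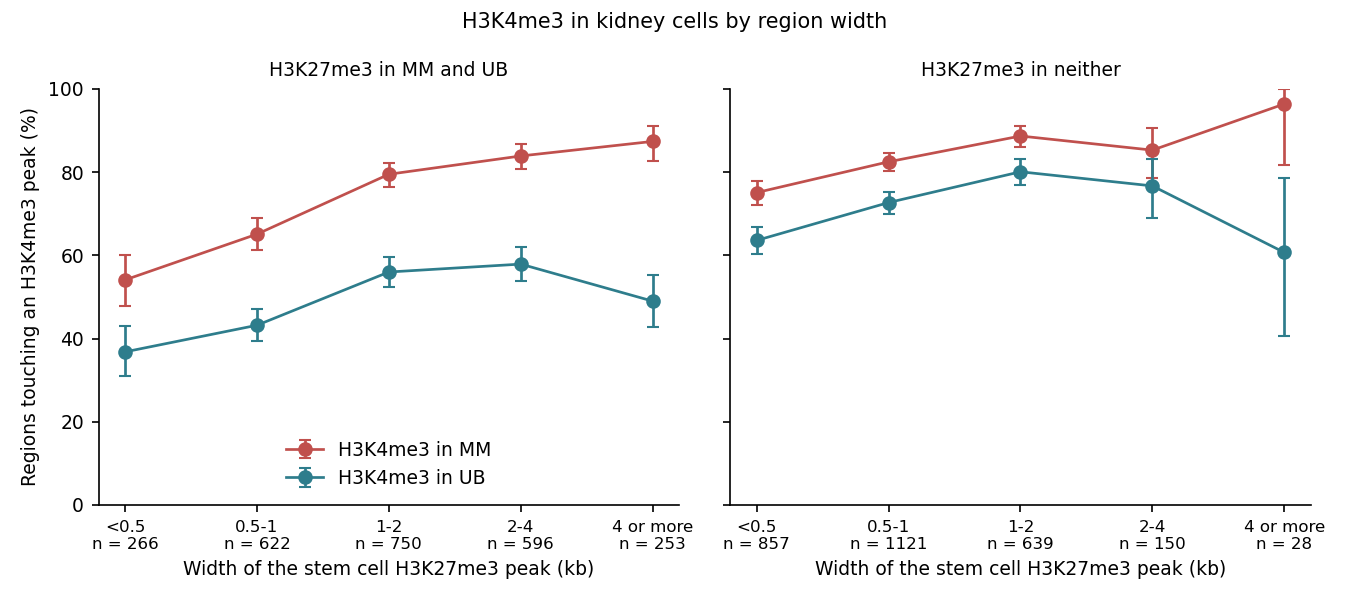
Percentage of regions touching an H3K4me3 peak in MM and UB (vertical axis) by width of the stem cell H3K27me3 peak (horizontal axis, 5 classes), for regions with H3K27me3 in both lineages (left) and in neither (right). Lines are 95% Clopper-Pearson intervals. On the left the MM share goes from 54.1% to 87.4%, while the UB share stays between 36.8% and 57.9%.

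H3K4me3 and H3K27me3 of the same population shared bases at most regions. The rule required kidney H3K27me3 in every region, so these overlaps are a description. Of the 1866 regions with H3K4me3 in MM, 1754 (94.0%) had bases under both MM marks, and in UB 1164 of 1256 (92.7%) had bases under both UB marks. Each library averages over many cells, so overlapping marks may come from different cells. In MM 24.9% of all region bases were under both marks, 12.5% under H3K4me3 alone, 49.1% under H3K27me3 alone and 13.5% under neither. In UB the shares were 21.1%, 5.71%, 65.7% and 7.50%. In MM-only regions 82.3% of MM H3K4me3 bases were also under MM H3K27me3, which covered 83.2% of all bases there. In regions marked in both lineages the values were 60.1% and 63.8%, so the share followed the coverage in each state.

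The H3K4me3 peaks touching the regions, at a start or not, were narrower and scored lower by median than other peaks near coding starts. This was not so against the whole MM and mES lists. Of the 1866 regions with H3K4me3 in MM, 1111 lay within 1 kb of a coding start, and of the 1256 in UB, 792 did. Peaks at the regions were not split by start, so the part of position in the gap was not tested. The score is the authors' own peak value, of unstated meaning, and is read here only within a list. In MM the 1601 H3K4me3 peaks that touched a region had a median width of 1647 bp and a median score of 716, against 2279 bp and 2351 for the other peaks within 1 kb of a coding start. In UB 1020 peaks had medians of 1833 bp and 200, against 2134 bp and 715. The same held in mES, where 1905 peaks had medians of 2343 bp and 383, against 2847 bp and 904. Over whole lists the medians were 1312 bp and 449 in MM, 1547 bp and 319 in UB and 1481 bp and 208 in mES. Peaks at the regions were thus wider than the list median in all 3, and scored above it in MM and mES and below it in UB. Within MM, the best peak of a region had a median score of 1253 where UB also had H3K4me3 and of 330 in MM-only regions, the latter below the MM list median. Restricting each list to its upper 50% by score left 1489 regions, of which 57.7% had H3K4me3 in MM and 21.0% in UB.

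Regions with and without a gene start differed. A protein-coding start lay within 1 kb of 1221 regions (49.1%, 47.1 to 51.1), against 30.5% of all stem cell H3K27me3 peaks. Such a start was more frequent in each group of other regions with both marks in stem cells. The counts were 584 of 1011 with H3K27me3 in UB only, 234 of 435 in MM only and 1498 of 2795 in neither. At the 1221 regions, H3K4me3 was present in 91.0% in MM and 64.9% in UB, and in MM only in 27.4%. At the 1091 regions with no listed start the shares were 59.5% and 35.8%. By state, 65.2% of regions with H3K4me3 in both had a coding start, 49.6% in MM only, 23.4% in UB only and 17.1% in neither. Regions without kidney H3K4me3 were thus mostly away from starts, and many were pieces of larger domains: 382 of the 557 (68.6%) lay in a group, joined at 3 kb, that had H3K4me3 in MM at another region, 206 (37.0%) in one that had it in UB, and 170 (30.5%) in one with none.

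Around the starts of the 938 coding genes at the regions, H3K4me3 was most frequent at and just after the start. H3K27me3 was more frequent downstream of the start than on it, at 62.4% of genes 1000 bp downstream and 41.5% at the start in MM, and at 79.3% and 66.4% in UB. On the upstream side it differed little from the start, at 42.4% in MM and 63.3% in UB 1000 bp before it. For the 641 genes with H3K4me3 in both lineages, the start base itself was under H3K4me3 in 94.2% in MM and 91.4% in UB. MM H3K27me3 covered the start base in 28.5% of these genes and the base 1000 bp downstream in 56.5%, with 34.9% at the base 1000 bp upstream. For UB H3K27me3 the values were 56.3%, 74.4% and 56.2%. For the 245 MM-only genes the picture was flatter: the start base was under MM H3K4me3 in 81.2%, under MM H3K27me3 in 69.8% and under UB H3K27me3 in 89.4%. In mES, H3K27me3 at the 641 genes was at 47.0% on the start and 85.5% downstream, a larger drop than in MM, although MM had the lowest value. Of the 44 genes at regions with neither, 31.8% had MM H3K4me3 on the start base itself, outside the region but within 1 kb of it.

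**Figure D3:**
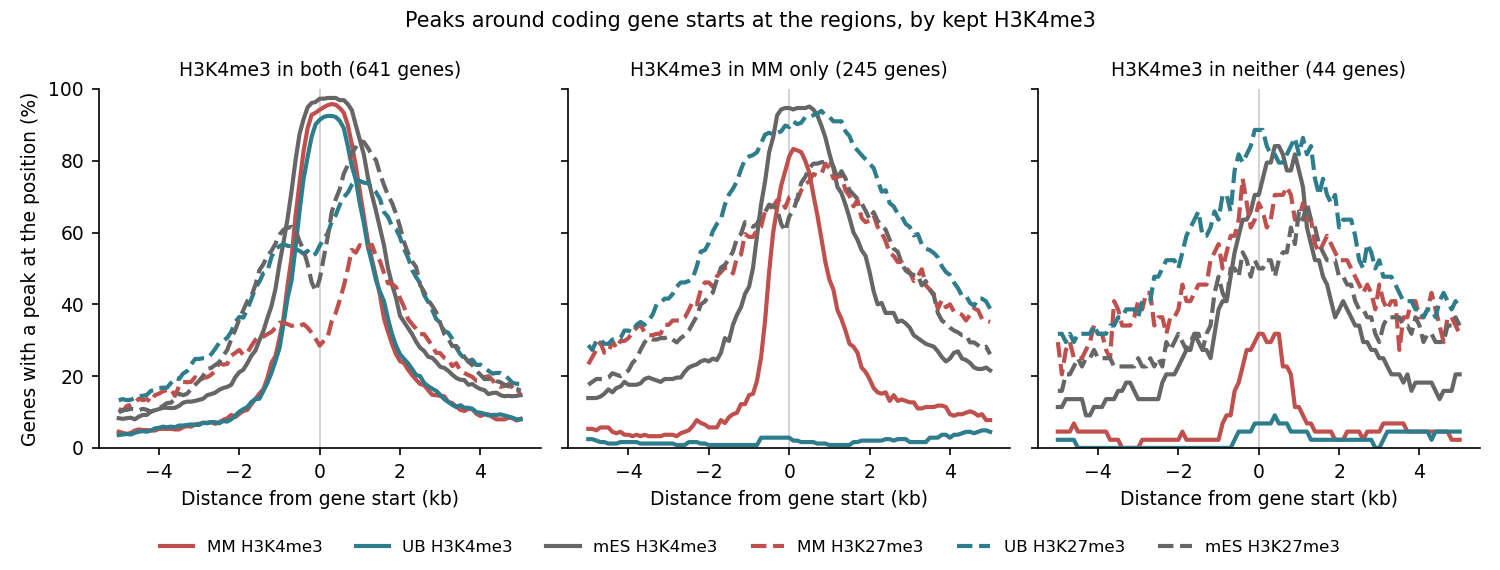
Percentage of coding genes with a peak of each list at each position (vertical axis) by distance from the gene start in kb (horizontal axis, 100 bp steps), for genes whose regions had H3K4me3 in both lineages, in MM only or in neither. Solid lines are H3K4me3 and dashed lines H3K27me3. In the left panel MM H3K27me3 dips to 28.5% at the start, and in the middle panel it stands at 69.8%.

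The 938 coding genes were 4.29% of 21883, and 299 long noncoding genes had a start within 1 kb of a region as well. A gene takes the H3K4me3 of every region it touches, so 641 genes had it in both lineages, 245 in MM only, 8 in UB only and 44 in neither. In all, 94.5% of these genes had H3K4me3 in MM and 69.2% in UB, beside 65.8% and 61.9% of all coding genes with such a peak within 1 kb of a start. Of the 938 genes, 793 had 1 listed start, and 854 had every start at a region.

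Transcription factor genes were often at regions, though most genes at regions were in none of the families searched (651 of 938). The transcription factor families searched by symbol (homeobox, forkhead, Sox, T-box, Gata, basic helix-loop-helix and others) held 370 genes, of which 193 (52.2%) were at regions, against 4.29% of all coding genes. The rule requires both marks in mES, which 262 of the 370 had. Of all coding genes 2578 had them, with 938 at regions. These 193 genes had H3K4me3 in MM in 91.2% and in UB in 46.1%. In MM only it was present at 88 of them, in both at 88, in UB only at 1 and in neither at 16. The 32 genes of signalling families at regions stood at 96.9% in MM and 78.1% in UB, the 62 of receptor, channel and guidance families at 91.9% and 67.7%, and the 651 genes in none of these families at 95.5% and 75.7%. The gap between lineages was thus widest among transcription factors. None of 80 ribosomal protein genes was at a region, and none had both marks in mES, so the rule could not take them.

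Nkx and Pax genes showed the gap most plainly. Nkx genes encode homeodomain factors of ventral neural tube, heart and gut, and 12 of 14 were at regions, all 12 with H3K4me3 in MM and 2 with it in UB. The region at Nkx2-1, the thyroid and lung factor, was 10628 bp wide with MM H3K4me3 over 12.1% of it and no UB peak. Nkx1-2 was 1 of the 2. Pax genes, paired-box factors of eye, muscle, neural crest and skeleton, had 6 of 9 members at regions, all 6 with H3K4me3 in MM and 1, Pax6, with it in UB. Pax2, which is needed in both kidney lineages, was not among them. Pax7 held the widest of all regions, 13497 bp (chr4:139819565-139833061), with H3K27me3 over 98.0% of it in MM and 100% in UB and a stretch of H3K4me3 in MM. Its RNA was listed at 0 FPKM in MM and 0.0367 in UB.

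Other homeobox families ranged widely. All 6 Dlx genes, which pattern forebrain and jaw, had H3K4me3 in MM and 3 had it in UB. At Dlx1 the region was 13172 bp and MM H3K4me3 covered 3.46% of it. Of 11 LIM homeobox genes at regions, 10 had the mark in MM and 7 in UB, with Lhx3, a pituitary and motor neuron factor, in neither. All 5 Irx genes had it in both. Among 57 further homeobox genes at regions, 48 had it in MM and 23 in UB. The 8 with neither included Pdx1, Tlx1, Otp, Cdx2, Otx2, Cdx1 and Hhex, factors of pancreas, spleen, hypothalamus, gut, head and liver.

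Hox genes were mostly absent. Of 39 Hox cluster genes, 38 carried both marks in mES and 6 were at regions, and those 6 belonged to paralogue groups 11 to 13, the most posterior ones. Hoxc11 and Hoxa13 had H3K4me3 in both lineages, and Hoxc12, Hoxc13, Hoxd13 and Hoxb13 in MM only. Hoxc11 had a region of 10962 bp with MM H3K4me3 over 79.2% and UB H3K4me3 over 45.4%, MM H3K27me3 over 31.5% and UB H3K27me3 over 91.3%, and RNA at 6.31 FPKM in MM and 0.0952 in UB. At Hoxd13 MM H3K4me3 covered 20.1% of the widest region, and RNA was 0.813 and 0.0475 FPKM.

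Basic helix-loop-helix, forkhead and T-box genes followed the same order. Neurogenic and myogenic helix-loop-helix genes had 22 members at regions, 21 with H3K4me3 in MM and 8 with it in UB. MM-only genes included Olig2, Neurog1, Neurog2, Neurod1, Hand1 and Myod1, drivers of neural, heart and muscle fates. Forkhead genes had 16 at regions, 15 with the mark in MM and 8 in UB, with Foxb1 and Foxl2 among those in MM only and Foxd3, a neural crest factor, in neither. T-box genes had 11 at regions, 9 and 5. Tbx2, at 65.5 FPKM in ureteric bud and 2.34 in mesenchyme, had UB H3K4me3 over 98.1% of its regions and MM H3K4me3 over 63.1%.

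Sox and Gata genes had nearly equal counts. Of 9 Sox genes 8 had H3K4me3 in MM and 7 in UB, and of 5 Gata genes 4 had it in each, with Gata4 in neither. Sox17, Sox7, Sox18, Tal1 and Kdr, genes of endothelium and blood, all had H3K4me3 in both. UB coverage was above MM coverage at Sox17 (53.3% and 33.8% of a 9158 bp region), at Tal1 (59.4% and 26.7%) and at Kdr (68.2% and 52.6% of all its regions). Of 6 endothelial markers, UB H3K4me3 was at the starts of all 6 and MM H3K4me3 at 1, Kdr. Their summed RNA was 3.35 FPKM in ureteric bud and 31.5 in mesenchyme. The part of endothelial cells in the UB library in these values was not tested.

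Markers of neurons and neural crest moved with MM. Of 6 such markers, MM H3K4me3 was at the starts of 4 and UB H3K4me3 at 1, and each population had H3K27me3 at 5. Their summed RNA was 12.4 FPKM in mesenchyme and 5.71 in ureteric bud. Sox10, which defines neural crest, was at a region with H3K4me3 in neither lineage, with RNA at 0.295 FPKM in mesenchyme and 0.0135 in ureteric bud. Whether such cells add to the MM-only H3K4me3 at neural genes was not tested.

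Signalling genes had H3K4me3 in UB more often than transcription factors did, in counts. All 12 Wnt ligand genes at regions had H3K4me3 in MM and 7 had it in UB. Wnt11 and Wnt9b, ureteric signals to the mesenchyme, were among the 7, with Wnt7b, Wnt6, Wnt5a, Wnt16 and Wnt2, while Wnt1, Wnt3, Wnt3a, Wnt2b and Wnt10b were in MM only. At Wnt9b UB H3K4me3 covered 72.8% of its regions and MM H3K4me3 25.9%, and RNA was 16.5 FPKM in ureteric bud and listed at 0 in mesenchyme. All 7 BMP and Wnt antagonists at regions, among them Grem1, Fst and Dkk1, had H3K4me3 in both. Of the hedgehog ligands, Shh and Dhh had it in both and Ihh in MM only. Shh, made by ureteric epithelium in its distal part, had UB H3K4me3 over 99.9% and MM H3K4me3 over 79.9% of its widest region, with RNA at 2.63 FPKM in ureteric bud and listed at 0 in mesenchyme.

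Genes of excitable cells were at regions more often than the 4.29% of all coding genes. Of 80 voltage-gated channel genes 20 (25.0%) were there, of 48 receptors for glutamate, GABA and glycine 15 (31.2%), of 71 monoamine, peptide and acetylcholine receptors 17 (23.9%), and of 55 Eph, ephrin, semaphorin, netrin and Slit genes 10 (18.2%). The rule requires both marks in mES, which 138 of these 254 genes had, with 62 at regions. Of all coding genes 2578 had both marks in mES, with 938 at regions. Among genes with both marks in mES the shares were thus much closer together. Of the 20 channel genes 19 had H3K4me3 in MM and 15 in UB. The glutamate, GABA and glycine group had 14 in MM and 9 in UB, the monoamine, peptide and acetylcholine group 15 and 10, and the guidance group 9 and 8. Genes of Polycomb itself were present too: 3 of 29 Polycomb and Trithorax genes were at regions, each with H3K4me3 in both, among them Cbx8 and Bmi1, subunits of Polycomb repressive complex 1. Cbx8 had the widest region of that state with a coding start, 11238 bp (chr11:119041804-119053041), with RNA at 2.31 FPKM in MM and 2.60 in UB. Foxf1, a forkhead factor of gut and lung mesenchyme, had the next widest, 11213 bp, with H3K4me3 over 17.6% in MM and 10.1% in UB and RNA listed at 0 in both. Bmi1 had 14.8 and 15.4 FPKM.

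**Figure D4:**
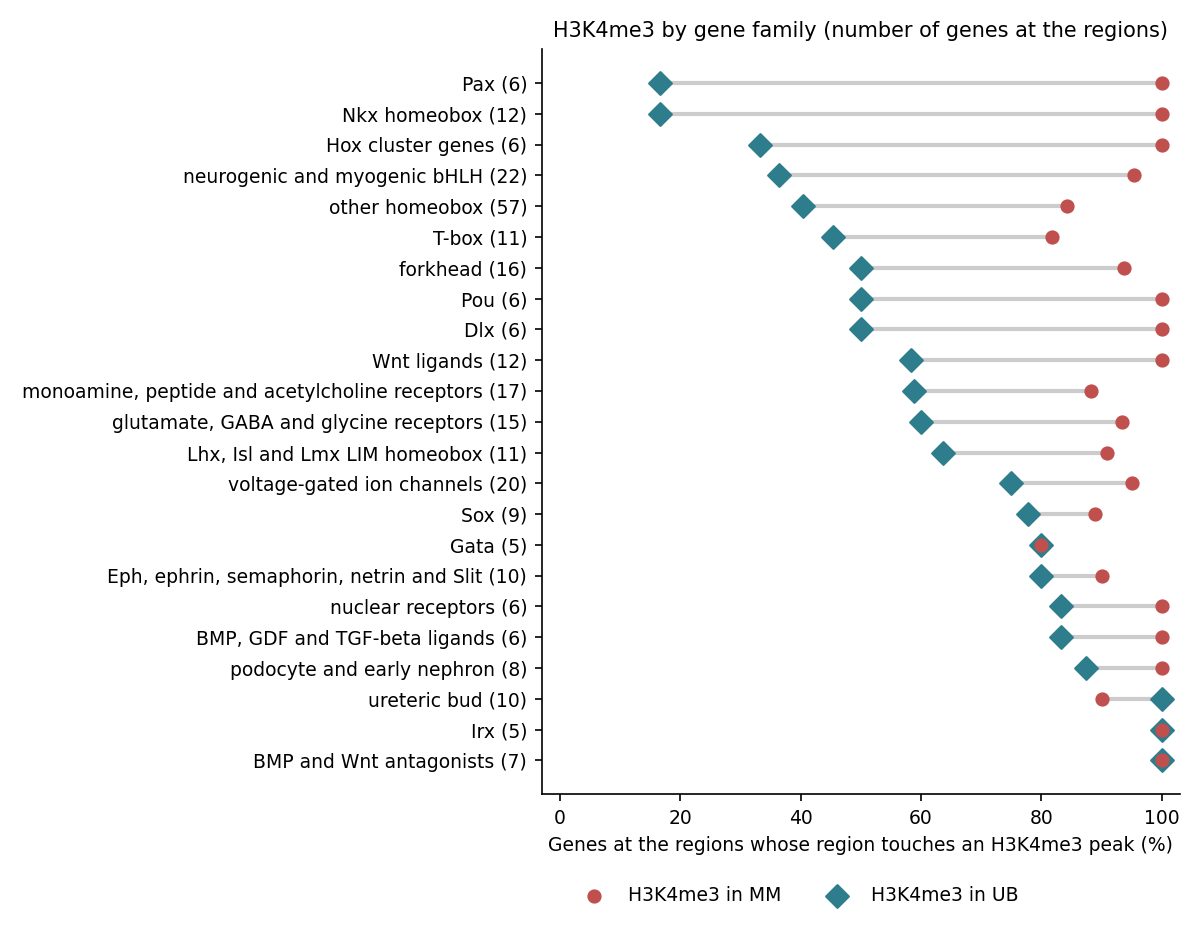
Percentage of genes at the regions whose regions touched an H3K4me3 peak in MM (circles) and in UB (diamonds), by gene family with at least 5 genes there, ordered by the UB share, with the number of genes in parentheses. Every family but ureteric bud genes has an MM share at or above its UB share. Pax and Nkx have the lowest UB share, 16.7%.

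The widest regions of the MM-only state at a coding start were at Pax7, Pax3, Dlx1, Lbx1, Gsx2 and Six3, factors of muscle, neural crest and brain, and were 12.4 to 13.5 kb wide. MM H3K4me3 covered 3.46% (Dlx1) to 23.2% (Lbx1) of them, while H3K27me3 covered 96.7% to 100% in MM and 98.5% to 100% in UB. RNA at these 6 genes was between 0 and 0.0880 FPKM in MM and between 0 and 0.490 in UB. These were thus long Polycomb domains with a short stretch of H3K4me3 in 1 lineage. At Nkx1-1, whose promoter is shown above, H3K27me3 covered 80.2% of 9783 bp in MM and 99.9% in UB.

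Among regions at a coding start with H3K4me3 in neither, the widest other than that at Pcca included those at Pdx1 (6.92 kb), Tlx1, Otp and Kcnk9, a potassium channel gene. H3K27me3 covered 71.6% to 100% of these 4 in MM and 99.4% to 100% in UB. Pcca, a mitochondrial enzyme gene, had 1 of its 2 listed starts at its region, and its RNA was 4.37 FPKM in MM and 8.44 in UB.

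The UB-only state was rare, and Tfap2b had its widest region. Its region spanned 5.83 kb (chr1:19206700-19212533), and UB H3K4me3 covered 79.3% of it, with no MM peak. UB H3K27me3 covered 42.7% and MM H3K27me3 89.3%. RNA was 25.1 FPKM in ureteric bud and 0.393 in mesenchyme. Of the 8 coding genes of this state, Tfap2b alone reached 1 FPKM in ureteric bud. The other wide UB-only regions at a coding start were at Gm36079, Nfix, Dbx1 and Fev. Dbx1, an interneuron factor, had UB H3K4me3 over 2.90% of its region and RNA listed at 0 in both. Fev, a factor of serotonin neurons, had a second region with H3K4me3 in both lineages and RNA at 0.0233 FPKM in MM, with a log2 difference, MM minus UB, of -3.43.

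RNA was low at most genes of the regions. Of 920 coding genes with a value, 123 (13.4%, 11.2 to 15.7) reached 1 FPKM in MM and 123 (13.4%) in UB, against 48.3% and 49.9% of all coding genes. In dissected tissue fewer cells of a type and less RNA per cell cannot be told apart. Genes at regions with H3K27me3 in neither lineage stood at 54.0% and 53.3%. Those with H3K27me3 in UB only stood at 38.9% in MM and 23.7% in UB, and those with it in MM only at 20.0% and 37.8%. Genes with H3K27me3 in both lineages were thus the group with the lowest share in each library.

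RNA also differed between H3K4me3 states, with the highest shares where both lineages had the mark. Genes with H3K4me3 in both lineages reached 1 FPKM in 18.1% in MM (15.1 to 21.3, n = 626) and 18.2% in UB. MM-only genes did so in 2.07% in MM (0.674 to 4.76, 5 of 242) and 2.48% in UB (0.915 to 5.32, 6 of 242). These counts are too small to order the libraries, and the tissue was taken earlier than the chromatin. Of 16 other settings, 7 had more such genes in MM and 9 more in UB, with 17 and 10 of 242 at a limit of 0.5 FPKM. Genes with neither stood at 11.4% in MM (5 of 44) and 4.55% in UB (2 of 44). These shares were above those of MM-only genes, on small counts, so RNA did not follow MM H3K4me3 across the states.

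A difference between the 2 RNA libraries was counted as 4-fold at 2 or more on the log2(FPKM + 1) scale, which understates the change of low genes, when the higher of the values reached 2 FPKM. By this count 26 of the 920 genes at the regions were higher in MM, where 0.987% of all coding genes (209 of 21185) were. A further 40 of the 920 were higher in UB, where 2.24% (475 of 21185) were. Other genes with both marks in stem cells differed too. With H3K27me3 in neither lineage, 47 of 1168 genes were higher in MM and 77 in UB. With it in UB only, 55 of 422 were higher in MM and 14 in UB. With it in MM only, 1 of 185 was higher in MM and 29 in UB. The group with H3K27me3 in neither thus had a larger share each way than the group with it in both. Over genes detected at 1 FPKM in either library the median difference, MM minus UB, was -0.33 at the regions and -0.47 over all coding genes. Scaling UB to a median difference of 0 gave 27 and 31 genes. Of the 40 genes higher in UB, 39 had H3K4me3 in both lineages and 1, Tfap2b, in UB only. Of the 26 higher in MM, 24 had it in both, 1, Tbx18, in MM only and 1, Crmp1, in neither, the last with 1 of its 2 starts at a region.

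Of the 40 genes higher in UB, 10 (25.0%) were on the list of ureteric bud genes. The shares of the kidney gene lists among all coding genes 4-fold higher in UB or in MM were not counted. Tfap2a stood at 0.107 FPKM in MM and 121 in UB (log2 difference -6.79). Its region of 9.38 kb (chr13:40731504-40740884) had UB H3K4me3 over 80.6% and MM H3K4me3 over 17.8%, with H3K27me3 over 98.3% in MM and 99.1% in UB. Emx2, a homeobox gene needed for ureteric branching, stood at 1.43 and 225 FPKM (-6.54), with UB H3K4me3 over 100% and UB H3K27me3 over 11.8% of its region, and MM H3K27me3 over 93.2%. These are genes with RNA at high level in a tissue whose later sorted cells carried both peaks.
Ret, the receptor for the mesenchymal signal Gdnf, stood at 0.341 and 72.8 FPKM (-5.78), with H3K4me3 over 100% of its region in UB and 43.8% in MM. Gata3, a zinc finger factor of the ureteric duct, stood at 1.51 and 95.7 FPKM (-5.27), with 100% and 27.7%. Aldh1a3, an enzyme of retinoic acid synthesis, stood at 0.153 and 57.8 FPKM (-5.67). Of 25 ureteric bud genes listed from general knowledge, 10 were at regions, all 10 with H3K4me3 in UB and at 1 FPKM or more there, and 9 with H3K4me3 in MM. The rule requires both marks in mES, which 17 of the 25 had. Of all coding genes 2578 had them, with 938 (4.29%) at regions. Of these 938, 69.2% had H3K4me3 in UB and 94.5% in MM. Of those with an RNA value, 13.4% reached 1 FPKM in UB. The list was made of known bud genes, so their RNA in the bud is a description.

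Of the 26 genes higher in MM, 3 were on the list of renal stroma genes, Pdgfra, Foxd1 and Tbx18, and 1 on that of nephron progenitor genes, Hoxc11. Pdgfra stood at 75.1 FPKM in MM and 0.456 in UB (5.71). Its region of 8.59 kb (chr5:75146706-75155299) had H3K4me3 over 38.9% in MM and 11.4% in UB, and H3K27me3 over 97.6% and 99.6%. Foxd1, the defining factor of stromal progenitors, stood at 22.9 and 0.0301 FPKM (4.54), with H3K4me3 over 56.3% and 46.2%. The reporter-sorted MM chromatin was from nephron progenitors, while the dissected mesenchyme also holds stroma.
Tbx18, a stromal and ureter mesenchyme factor, stood at 8.50 and 0.0588 FPKM (3.17), with MM H3K4me3 over 40.4% of its 3 regions and no UB peak. Meis2 stood at 166 and 2.30 FPKM (5.67), with H3K4me3 over 100% of its region in each and H3K27me3 over 4.68% in MM and 52.9% in UB. Crabp1, a retinoic acid binding protein gene, Scube1 and the helix-loop-helix gene Ebf3 completed the 6 largest, with differences of 4.83, 3.47 and 3.47. Of 22 nephron progenitor genes listed from general knowledge, 2 (9.09%) were at regions, among them Hoxc11, beside 4.29% of all coding genes. The rule could take only genes with both marks in mES. These were 16 of the 22, and 2578 of all coding genes, of which 938 were at regions. Among genes with both marks in mES the nephron progenitor list thus had the lower share. Of 12 defining markers, Six2 and Cited1 among them, none was at a region.

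The highest RNA at the regions in MM was of Grb10 (221 FPKM in MM, 212 in UB) and Igf2 (199 and 152), imprinted regulators of growth. Both have several starts, of which 1 of 2 and 3 of 4 were at regions, so their RNA may come from a start outside. Ptprd, a receptor phosphatase gene (34.8 and 3.67 FPKM), was sixth in MM. Mecom, a zinc finger factor with 1 of 2 starts at its region, was sixth in UB at 90.7 FPKM, with 18.2 in MM.

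Coverage by H3K4me3 was set beside the RNA difference. Of the 40 genes higher in UB, 32 (80.0%) had more of their region bases under H3K4me3 in UB than in MM, against 20.1% of the 854 genes with no 4-fold difference. The median coverage was 80.0% in UB and 46.8% in MM for the 40 genes, and 34.7% and 51.1% for the 854. Of the 26 genes higher in MM, 17 (65.4%) had more in MM, against 71.1% of genes with no such difference. This share was 88.4% (38 of 43) with joined stem cell peaks and 9 of 10 genes when each list had to cover 50% of a stem cell peak, while it was 6 of 10 with starts inside the region, so the MM value depends on the setting. The share for genes with no such difference was not recomputed under these settings. H3K27me3 covered more in UB than in MM for 80.1% of the 854 genes and for 23 of the 26 (88.5%), but for 19 of the 40 (47.5%). These counts were made after the values of single genes had been seen, and are a description of these libraries.

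**Figure D5:**
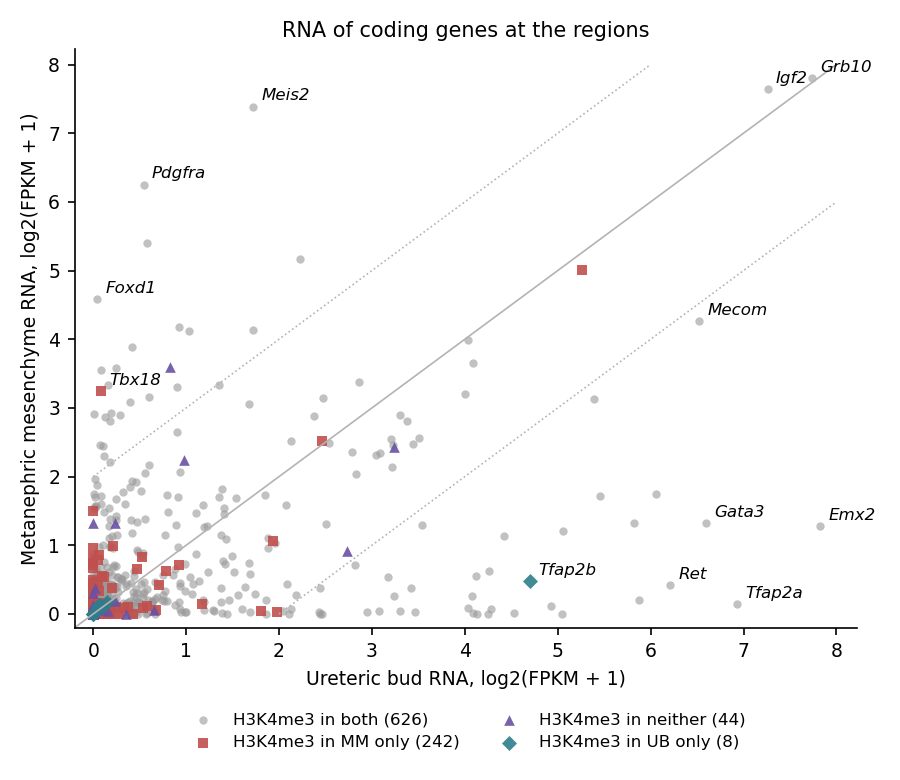
RNA of the 920 coding genes at the regions with a value, as log2(FPKM + 1) in ureteric bud (horizontal) and metanephric mesenchyme (vertical), with marker shape and colour by the H3K4me3 state of the regions. The solid line marks equal values and dotted lines a difference of 2. Most MM-only genes cluster near 0 on both axes. Gpbp1, at 31.15 FPKM in MM and 37.33 in UB, is an MM-only gene high in both. Tbx18 is the MM-only gene beyond the dotted lines, and Tfap2b is the UB-only gene far to the right.

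Marker genes were set against the labels, and single markers went against the sums. The 12 nephron progenitor markers summed to 304 FPKM in mesenchyme and 54.3 in ureteric bud, with MM H3K4me3 at all 12 starts, UB H3K4me3 at 11 and MM H3K27me3 at none. Within this list Cited1, the gene of the MM reporter, stood at 2.78 FPKM in mesenchyme and 8.34 in ureteric bud, and Pax2 at 15.1 and 41.1. The 15 ureteric markers summed to 22.4 and 2834 FPKM, with UB H3K4me3 at 14 starts and MM H3K4me3 at 13, and 8 of the 15 were at regions. The start without UB H3K4me3 was that of Hoxb7, the gene of the UB reporter, which had MM H3K4me3 and RNA at 9.95 FPKM in mesenchyme and 75.8 in ureteric bud. The 9 stromal markers summed to 387 and 3.73 FPKM. Podocyte markers (5) summed to 16.2 and 2.60, and blood markers (5) to 2.17 and 1.98 FPKM. Pluripotency markers (6) summed to 0.859 and 1.46 FPKM, with Pou5f1 and Nanog listed at 0 in both.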

How the data were processed

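H3K4me3 and H3K27me3 were profiled in MM, UB and mES cells and RNA in mesenchyme and ureteric bud, 1 sample each, 11 with the 3 inputs, which were not analysed here. The 6 peak lists were used as the authors deposited them. The submitters' processing notes name Bowtie2, MACS and the build mm10 for them. The score of a peak is the value the authors deposited, with lowest values of 30.00 to 50.01 by list. RNA values are FPKM as the authors deposited them, made with TopHat, Cufflinks and Cuffdiff per the submitters' processing notes. FPKM is relative to everything mapped, and depth is unknown. No source used here gives tool versions, settings or how many libraries each list or column pools.

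Overlaps and covered bases were computed with Python 3.11.15, numpy 2.4.6 and pandas 2.3.3, and intervals with scipy 1.17.1 at 95%. The interval code was tested on simulated peaks. Coordinates count from 1. Of 138486 transcripts, 104428 were paired with a RefSeq gene by accession and 18279 by locus, and summed per gene. Starts came from RefSeq's GRCm38.p6 promoter table (27024 genes), otherwise from the outer gene end with strand by table order (6552), which gave the same strand at 24307 of 24307 genes where both were known, or from both ends (1034). A gene was assigned to regions within 1000 bp of a start. The members and lists were chosen with earlier results of these data known. Named genes were those at the 6 widest regions of each state, examples from each family, the 6 highest in each RNA library, the 6 largest differences each way, 4-fold genes at MM-only or UB-only regions, and the kidney list genes where few; some genes the rule selects are not reported here. Crmp1, Kdr, Tal1, Gpbp1 and single markers were named after their values were seen. Alternatives were other overlap minima, score limits, equal list lengths, joined peaks, Hox clusters left out, gene windows, FPKM limits, pseudocount and scaling. One more, genes with every start at a region, was chosen after seeing the data.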

Additional observations from a re-analysis of the deposited data

How the results depend on the processing

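No paired analysis was possible because each group holds 1 sample and the labels give no shared replicate numbers. No replicate could be left out. Of 282 values recomputed under 22 other settings, 159 stayed within their interval, or within 1.5 times for counts, 122 moved and 1 changed sign. The MM share with H3K4me3 was above the UB share, and the MM-only share above the UB-only share, under all 12 settings tried for them. In the values below, differences are regions with H3K27me3 in both lineages minus other regions with both marks in stem cells, in percentage points, and detected means 1 FPKM in MM unless another limit is named. The causes of these moves were not tested, except that stricter limits leave fewer peaks.

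With at least 200 bp of each list, H3K4me3 was in MM at 77.5%, in MM only at 29.5%, and the differences were -11.3 (MM) and -26.6 (UB). With 50% of the peak under each list 1258 regions, 687 genes and 502 coding genes were left, with H3K4me3 in UB at 45.5% and in MM only at 33.4%, differences of -13.7 and -32.0, and 10 and 20 genes 4-fold higher in MM and UB. With scores of at least 50 the UB difference was -24.6. With the upper 50% by score, 1489 regions had H3K4me3 in MM at 57.7%, in UB at 21.0%, in MM only at 38.2% and in UB only at 1.54%, with differences of -25.2 and -30.5. Detected genes then made up 30.4% (both) and 9.58% (MM only), and 17 and 26 genes were 4-fold higher. With equal list lengths, 1125 regions, 609 genes and 434 coding genes had H3K4me3 in MM at 71.0%, in MM only at 24.1% and in UB only at 3.56%, differences of -15.4 and -27.0, and 14 and 17 genes 4-fold higher.

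With peaks under 3 kb apart joined, 1395 regions had H3K4me3 in MM at 92.9%, in UB at 68.7%, in MM only at 25.0% and in UB only at 0.860%, the MM difference changed sign to 6.98, the UB difference was -5.96, and 43 genes were 4-fold higher in MM. Requiring 200 bp of H3K4me3 gave 67.1% in MM, 44.8% in UB and 3.30% in UB only. Requiring 50% of the region under it gave 36.8%, 27.1%, 14.6% in MM only and 4.95% in UB only, with 22.0% (both) and 4.89% (MM only) of genes detected. Allowing a peak within 1 kb gave 85.2%, 57.5%, 29.1% and 1.33% in that order. Regions of 1 to 3 kb gave 80.4% in MM and 56.4% in UB, with a UB difference of -24.1. Regions at coding starts gave 91.0%, 64.9% and 1.23% in UB only, with differences of -1.19 and -18.3.

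Starts inside the region gave 663 genes, 463 of them coding, 14.6% detected (both), and 10 and 18 genes 4-fold higher. Limits of 0.5 and 2 FPKM gave 24.0% and 11.8% detected (both), and 0.5 FPKM gave 7.02% (MM only; 4.13% in UB RNA). A pseudocount of 0.1 gave 43 genes 4-fold higher in MM. Leaving out the Hox clusters left 2471 regions. With genes whose every start was at a region, 24 and 35 genes were 4-fold higher.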
